A study of Mus musculus with 32 samples.

Results

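Expression of 51 genes of fatty acid and glycerolipid metabolism was examined in sorted neoplastic cells of mouse lung tumors in which Lkb1 (gene symbol Stk11) was intact, lost or restored. The 51 genes were taken by symbol from the 53558 genes of the deposited tables, by their function but with earlier results of these data known. They fall into 7 roles, with 7 genes of fatty acid synthesis, 6 of desaturation and elongation, 7 of activation, binding and uptake, 12 of glycerolipid and phospholipid synthesis, 7 of lipid droplets and lipolysis, 8 of mitochondrial oxidation and 4 transcriptional regulators. Each has 1 position on GRCm38 (mm10) in GENCODE M21.

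All mice carried Rosa26LSL-tdTomato on a mixed C57BL/6J and 129 background, and tumors were initiated by lentiviral Cre, which also switches on the tdTomato reporter in lung epithelial cells. KT mice had wild-type Lkb1 and were untreated (4 libraries). In the other groups both Lkb1 alleles were XTR, a gene trap that Cre turns on to silence Lkb1 and that the tamoxifen-activated recombinase FLPo-ERT2 removes. Restored mice carried FLPo-ERT2 and received 4 mg doses of tamoxifen over 2 weeks (7 libraries). The 10 non-restored libraries were of 2 kinds, 6 with FLPo-ERT2 and corn oil vehicle and 4 with tamoxifen and no FLPo-ERT2. Trp53 wild-type tumors were collected 24 to 27 weeks after initiation. Trp53-deleted tumors, from Trp53flox/flox mice with the same Lkb1 alleles and treatments, were collected after 16 to 19 weeks, and gave 7 non-restored libraries from 4 animals, which were summed by animal, and 4 restored libraries, 1 per animal. The reporter depends on Cre, so that sorting keeps cells reached by the virus, while FLPo-ERT2 is carried by all cells of the mice that have it and can remove the trap outside the tumor cells too. KT mice received a lower dose of virus than Lkb1XTR mice. All restored libraries came from female mice, with and without Trp53, whereas KT held 2 male and 2 female and non-restored 3 male and 7 female libraries. Of the Trp53-deleted non-restored animals, animals 1 and 2 carried FLPo-ERT2 and received vehicle. Animals 3 and 4 received tamoxifen and had no FLPo-ERT2. Animals 2 and 3 were male, and animals 1 and 4 were female. For Trp53 wild-type tumors the study describes 3 vehicle-treated and 3 tamoxifen-treated non-restored mice and 4 restored mice, against 6, 4 and 7 libraries. Some of these libraries therefore share a mouse, which the labels do not identify, and they were not summed by mouse. The p-values of fits with these libraries measure the spread between libraries, some of which may be technical, and can be too small. Leaving out 1 library need not leave out a whole mouse.

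Fatty acids are built from acetyl-CoA by Acly, Acaca and Fasn, then elongated and desaturated, activated to acyl-CoA, and either esterified into triglyceride and phospholipid or carried into mitochondria and oxidized. Alveolar type II cells, from which these tumors commonly arise, make large amounts of phosphatidylcholine for surfactant and are among the most active lipogenic cells of the lung. LKB1 activates the kinase AMPK, which phosphorylates acetyl-CoA carboxylase, so that much of its known effect on lipid metabolism lies in protein activity and would not appear in mRNA.

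Total expected counts per library ranged from 1302482 to 5943951, which set the limit of detection (3 counts) at 0.389 to 2.49 CPM (counts scaled to a common library total after TMM) in single or summed libraries and covers counting error only. Stk11 followed the labels, with 16.6 to 27.25 CPM in KT, 0 to 1.07 in non-restored, 11.6 to 22.4 in restored, 0 to 0.5185 in Trp53-deleted non-restored and 8.50 to 14.9 in Trp53-deleted restored tumors. Trp53 was at 1.37 to 4.905 CPM in Trp53-deleted samples and at 11.8 to 39.5 CPM in the rest. The summed level of 9 alveolar type II and epithelial markers ranged from 7076 to 106700 CPM over all samples. Its median was 77120 CPM in KT, 52400 in non-restored and 81940 in restored tumors. In Trp53-deleted tumors the median was 25640 CPM without and 46470 with restoration. Macrophage markers, of which 11 of 12 were found in the tables, summed to 118.5 to 1387 CPM in Trp53 wild-type libraries. The 7 fibroblast markers had a median sum of 50.56 CPM in KT, 120.1 in non-restored and 177.2 in restored libraries. Their highest sums were 425.2 CPM in non-restored replicate 2 and 1530 in Trp53-deleted restored animal 1. Endothelial markers summed to at most 97.85 CPM and airway markers to at most 233.2. The part of fibroblast RNA in the comparisons was not tested. The 6 adipocyte markers summed to at most 19.7 CPM, in Trp53-deleted non-restored animal 3. Throughout a group, 3 of them were at 0 in KT, 3 in non-restored and 2 in restored tumors. In Trp53-deleted tumors 2 were at 0 without and 4 with restoration. Adipoq and Lep were at 0 in every group except Trp53-deleted non-restored tumors. Non-restored replicate 8 stood apart before any comparison. Its alveolar type II sum of 7076 CPM was the lowest of all samples, and its macrophage sum of 638 CPM was the highest of its group. It held the lowest value of its group for 27 of 46 members and was more than 1 log2 unit from the median of the other non-restored libraries for 21 of 46, against 1 to 8 of 46 for the other libraries of the group. Calls of members and named genes that depend on it are given with and without it, whereas the mean TPM levels and the tamoxifen-treated controls taken alone include it.

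Between members, levels were compared in TPM, which corrects for gene length. In non-restored tumors the highest mean levels were those of Cd36, a fatty acid transporter and scavenger receptor (683 TPM ± 242, SD, n = 10), Elovl1, an elongase of very long chains (614 ± 215), and Acsl4, an acyl-CoA synthetase that prefers arachidonate (442 ± 103). The ranges of mean ± SD of these 3 overlapped from one to the next in the order, and Acsl4 stood clear of Me1 (237 ± 37.4), the malic enzyme that supplies NADPH. Scd2, a stearoyl-CoA desaturase, followed at 217 ± 92.7, Elovl5 at 194 ± 29.5, Acsl5 at 187 ± 28.9, the choline kinase Chka at 185 ± 50.8, and Fasn, the fatty acid synthase, at 147 ± 63.6. Within roles the levels were uneven. Of the last enzymes of triglyceride synthesis, Dgat1 was at 11.2 ± 2.28 TPM and Dgat2 at 2.78 ± 2.53, and the muscle-type perilipin Plin5 was the lowest member at 0.082 ± 0.1415. The glucose-responsive factor Mlxipl (0.907 ± 1.23), the monoglyceride lipase Mgll (0.842 ± 1.104) and the elongase Elovl6 (0.976 ± 1.197) were also low, and each was under 2.49 CPM in most of the non-restored libraries.

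Acss1, Pcyt1a, Gpam and Acot7 had the largest of the differences called among Trp53 wild-type tumors, and the bases before their transcription starts are shown so that the upstream region of each can be read beside its values. The sequences are from RefSeq GRCm38.p6, in which 45 of 51 members had an entry, and Acat1 was among those without one. Each covers up to 250 bases before the first listed start, 5′ to 3′ on the gene's strand, and 18 bases next to the Acss1 start that lie in an exon of its coding transcripts were left out. They are Acss1 at chr2:150668259-150668490 (minus strand, 232 bases), Pcyt1a at chr16:32430671-32430920 (plus strand, 250 bases), Gpam at chr19:55127239-55127488 (minus strand, 250 bases) and Acot7 at chr4:152185358-152185607 (plus strand, 250 bases), which starts from a RefSeq transcript that begins inside the GENCODE gene. Capitals mark exact matches on either strand to the GC box GGGCGG, the CCAAT box CCAAT and the sterol response element TCACNCCAC, where overlapping matches run together.
Acss1: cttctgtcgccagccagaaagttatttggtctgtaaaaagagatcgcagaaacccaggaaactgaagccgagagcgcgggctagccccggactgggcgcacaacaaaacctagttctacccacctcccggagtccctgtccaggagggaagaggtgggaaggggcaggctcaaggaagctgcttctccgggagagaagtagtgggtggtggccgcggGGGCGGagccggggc
Pcyt1a: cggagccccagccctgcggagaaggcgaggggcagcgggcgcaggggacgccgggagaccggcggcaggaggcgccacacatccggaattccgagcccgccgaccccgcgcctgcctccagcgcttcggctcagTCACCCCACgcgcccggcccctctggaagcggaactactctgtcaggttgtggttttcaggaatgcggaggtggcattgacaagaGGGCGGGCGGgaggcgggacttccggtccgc
Gpam: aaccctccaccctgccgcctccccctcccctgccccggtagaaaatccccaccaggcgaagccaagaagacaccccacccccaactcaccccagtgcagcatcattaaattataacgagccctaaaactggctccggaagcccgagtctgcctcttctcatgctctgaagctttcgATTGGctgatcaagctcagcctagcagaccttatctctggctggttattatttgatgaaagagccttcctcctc
Acot7: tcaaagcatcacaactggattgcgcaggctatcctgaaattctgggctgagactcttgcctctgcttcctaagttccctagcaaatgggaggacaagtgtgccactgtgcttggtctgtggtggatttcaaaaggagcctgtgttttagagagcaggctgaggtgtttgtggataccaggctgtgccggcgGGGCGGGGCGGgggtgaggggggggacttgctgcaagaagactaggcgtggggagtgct
GC boxes were in the 250 bases before the start of Acss1, Pcyt1a and Acot7, and this motif was in 28 of 45 members with an entry and in 32.9% of 27025 promoters of the same length. The Gpam window held a CCAAT box, found in 14 of 45 members and 34.5% of all promoters. The Pcyt1a window held a sterol response element, as did 2 of 45 members and 1.04% of all promoters. The E-box CACGTG (4 of 45 members, 6.05% of promoters), the cAMP response element TGACGTCA (0 of 45, 1.62%) and the C/EBP motif TTGCNNAA (2 of 45, 9.55%) were not found in the printed windows.

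The first comparison asked what restoring Lkb1 did to these genes. After restoration 4 of 46 members tested rose and 0 fell at an adjusted p under 0.05, namely Acss1, Pcyt1a, Abhd5 and Acat1, while 1.86% of all 12656 genes tested were called (0.972% higher, 0.893% lower). Each of the 4 belongs to a different role, and the classical lipogenic enzymes were not among them. The median log2 fold change was 0.01 over the 46 members and -0.01 over all genes, with 24 estimates above and 22 below 0. At an unadjusted p under 0.05 there were 8 of 46 members (7 higher, 1 lower), against 15.1% of all genes. The 5 members that were too low to be tested were Lpin3, Mgll, Mlxipl, Mogat1 and Plin5, which were at 7.224 CPM or less in every Trp53 wild-type library. All restored mice received tamoxifen, whereas 6 of the 10 non-restored libraries came from vehicle-treated mice, so treatment in part goes with restoration. With the 4 tamoxifen-treated control libraries alone, 0 members and 50 of 12213 genes were called. That smaller group includes non-restored replicate 8, and an effect of tamoxifen itself was not tested. In bulk libraries a change in the share of cells of a type and a change in RNA per cell cannot be told apart.

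Acss1 encodes the mitochondrial acetyl-CoA synthetase, which makes acetyl-CoA from acetate. In GENCODE M21 the start of the gene overlaps E130215H24Rik, a non-coding gene on the opposite strand, and without strand information reads of both genes cannot be told apart there. It was at 18.2 to 33.5 CPM in non-restored libraries (median 24.0, n = 10) and 43.0 to 75.02 in restored libraries (median 50.1, n = 7). In KT libraries 1 to 4 it was 69.2, 56.4, 43.9 and 31.2 CPM. All 7 restored libraries lay above all 10 non-restored libraries, and KT overlapped both. After restoration Acss1 rose 2.11-fold (log2 fold change 1.08, SE 0.16, adjusted p = 0.000478), and it was called without each library in turn. Over 28 alternatives the adjusted p ran from 7.61e-08 to 0.07539, and it was above 0.05 only with the 4 tamoxifen-treated controls alone, where the log2 fold change was 0.91.

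Pcyt1a encodes CCTα, the enzyme that sets the rate of phosphatidylcholine synthesis. It was at 37.7 to 99.2 CPM in non-restored libraries (median 64.2) and at 81.4 to 147.9 in restored libraries (median 131.8). The 4 KT libraries held 71.9, 110.4, 126.1 and 106.0 CPM. Of the restored libraries 6 of 7 were above every non-restored library, and restored replicate 4 (81.4 CPM) fell within the non-restored range. Pcyt1a rose 1.815-fold (log2 fold change 0.86, SE 0.18, adjusted p = 0.0117), and 27 of 28 alternatives kept the call, the exception again being the tamoxifen-treated controls alone (adjusted p = 0.1795, the highest of a range that started at 0.0006254).

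Abhd5 (CGI-58) is the coactivator of the triglyceride lipase ATGL, which Pnpla2 encodes. It ranged from 55.9 to 128.4 CPM in non-restored libraries (median 90.75) and from 93.2 to 241.0 in restored libraries (median 153.5). KT libraries held 67.1, 154.4, 150.1 and 107.9 CPM. The groups overlapped, with restored replicates 4 (93.2 CPM) and 5 (119.2 CPM) in the non-restored range. Abhd5 was 1.71-fold higher (log2 fold change 0.78, SE 0.20, adjusted p = 0.0496), at the edge of the threshold, and 11 of 28 alternatives, among them 5 of the 17 that left out 1 library, kept the call (adjusted p 0.01235 to 0.3058). Without non-restored replicate 8 Abhd5 was not called, and neither was it with sex as a covariate. Pnpla2 itself had a log2 fold change of 0.03 (95% interval -0.35 to 0.41).

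Acat1 encodes the mitochondrial acetoacetyl-CoA thiolase, which acts in ketone body and isoleucine breakdown. It was at 38.9 to 64.3 CPM in non-restored libraries (median 45.9), at 58.9 to 88.8 in restored libraries (median 66.8), and at 84.2, 53.95, 75.25 and 68.6 in KT libraries. Restored replicates 2 and 6 (58.9 and 59.0 CPM) fell below non-restored replicate 1 (64.3 CPM), and the other 5 restored libraries were above all 10. Acat1 rose 1.46-fold (log2 fold change 0.55, SE 0.13, adjusted p = 0.02465). The call held in 21 of 28 alternatives and was lost without restored replicate 4 or 7, and the adjusted p ran from 0.003308 to 0.1826. It was also lost in female libraries alone, with either kind of control alone, with the replicate number as a block and with length offsets.

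**Figure D1:**
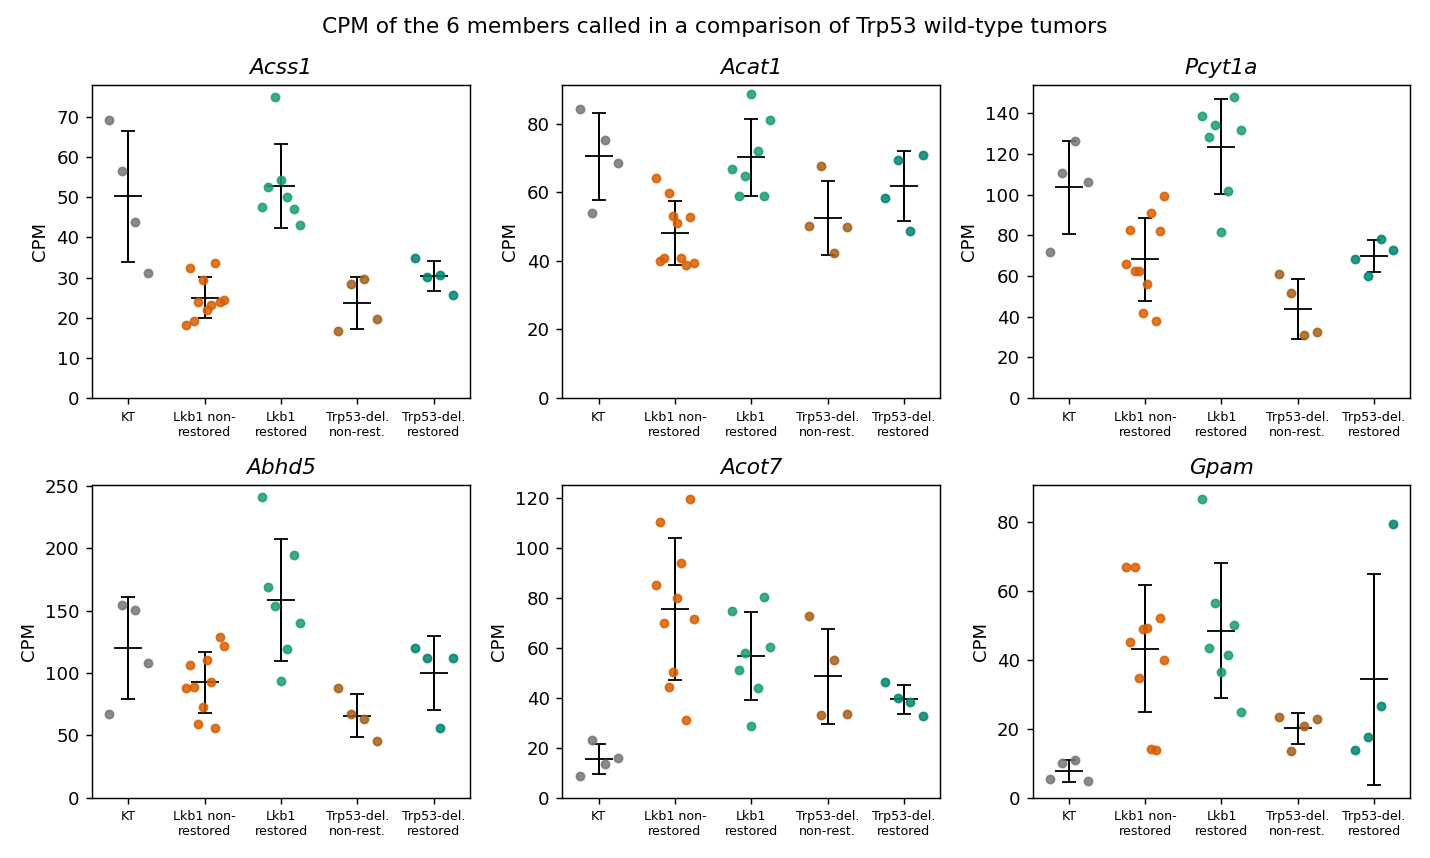
CPM of the 6 members called among Trp53 wild-type groups (linear axes from 0), with 1 point per library or, for Trp53-deleted tumors, per animal, and bars for the mean ± SD of each group. All 7 restored libraries lie above all 10 non-restored libraries for Acss1, and the 10 non-restored and 7 restored libraries lie above the 4 KT libraries for Acot7 and Gpam.

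The enzymes that build fatty acids did not pass the test after restoration. The log2 fold change was 0.24 for Acly (95% interval -0.09 to 0.57), 0.18 for Acaca (-0.37 to 0.73) and 0.12 for Fasn (-0.49 to 0.73), so that changes of 2-fold or more in either direction lay outside all 3 intervals. The mitochondrial carboxylase Acacb, the malic enzyme Me1 and the cytosolic acetyl-CoA synthetase Acss2 had estimates between -0.04 and 0.26. Among the 6 genes of desaturation and elongation, estimates ran from -0.32 (Fads2) to 0.31 (Fads1), and Scd2 was at 0.19. Among the 7 of activation, binding and uptake, Acsl4 had the largest increase (0.37, unadjusted p = 0.0433, adjusted p = 0.3088), Acot7 the largest decrease (-0.42), and Cd36 was at 0.03. Beside Pcyt1a, the glycerolipid genes spanned -0.23 (Etnk1, an ethanolamine kinase) to 0.43 (the phosphatidate phosphatase Lpin1), and Gpam was at 0.16. Plin3, a droplet coat protein, was at 0.40 (unadjusted p = 0.0243). Of the 8 oxidation genes, Cpt1a, which admits long-chain acyl groups to mitochondria, was the only one with an unadjusted p under 0.05 and a lower level (-0.41, p = 0.0305, adjusted p = 0.2681). Ppara, the receptor that drives fatty acid oxidation genes, was at 0.81 (unadjusted p = 0.0268, adjusted p = 0.2543) and Ppargc1a at -0.51.

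The second comparison set tumors with silenced Lkb1 against KT tumors. Here 4 of 46 members were called, with Acot7 and Gpam higher and Acss1 and Acat1 lower in non-restored tumors, while 5.86% of all genes were called (2.38% higher, 3.48% lower). At an unadjusted p under 0.05 there were 14 of 46 members (8 higher, 6 lower), against 20.8% of all genes. The median was -0.01 over members and 0.03 over all genes. KT and Lkb1XTR mice also differed in the titer of virus and in treatment, and these cannot be told apart from the loss of Lkb1. In female libraries alone, with 2 KT libraries, Acss1 was the 1 member called.

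Gpam encodes mitochondrial glycerol-3-phosphate acyltransferase, the first committed step of glycerolipid synthesis. KT libraries 1 to 4 held 5.48, 9.96, 10.98 and 4.80 CPM. Non-restored libraries held 14.0 to 67.0 CPM (median 47.0) and restored libraries 24.8 to 86.8 (median 43.5). All 10 non-restored and 7 restored libraries lay above every KT library, and non-restored replicates 7 (14.2 CPM) and 8 (14.0 CPM) were the closest. Gpam was 5.47-fold higher in non-restored than in KT tumors (log2 fold change 2.45, SE 0.45, adjusted p = 0.0023) and 6.12-fold higher in restored than in KT tumors (2.61, SE 0.47, adjusted p = 0.0104). Between restored and non-restored tumors the difference was 0.16 (95% interval -0.46 to 0.78). The counts behind the KT values were low, at 8 to 27 per library.

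Acot7 encodes a thioesterase that splits long-chain acyl-CoA into free fatty acid and CoA. It was at 8.90, 23.2, 13.4 and 15.8 CPM in KT libraries 1 to 4. In non-restored libraries it ranged from 31.0 to 119.6 CPM (median 75.7) and in restored libraries from 28.5 to 80.3 (median 57.8). All 10 non-restored and 7 restored libraries lay above the highest KT library. Acot7 was 4.96-fold higher in non-restored than in KT tumors (log2 fold change 2.31, SE 0.36, adjusted p = 0.000446) and 3.71-fold higher in restored than in KT tumors (1.89, SE 0.36, adjusted p = 0.0186), and the restored and non-restored groups overlapped (-0.42, 95% interval -0.94 to 0.10).

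Acss1 was 0.499 times as high in non-restored as in KT tumors (log2 fold change -1.002, SE 0.19, adjusted p = 0.0023) and Acat1 0.680 times (-0.56, SE 0.15, adjusted p = 0.0331), with the values by library given above. Acss1 kept its call in 24 of 25 alternatives, Acot7 in 24 of 25 and Gpam in 22 of 24, whereas Acat1 kept it in 12 of 25. This comparison and the first share the non-restored libraries, so the opposite signs of Acss1 and Acat1 in them are not independent of each other. Pcyt1a (log2 fold change -0.61, unadjusted p = 0.00859) and Abhd5 (-0.38) had lower estimates in non-restored than in KT tumors that did not pass the test. Others with an unadjusted p under 0.05 were higher for Acsl1 (0.72), Acss2 (0.67), Cpt2 (0.53), Hadhb (0.51), Elovl5 (0.50) and Cpt1a (0.47), and lower for Fabp5 (-1.31), Ppara (-1.08) and Acadl (-0.33).

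**Figure D2:**
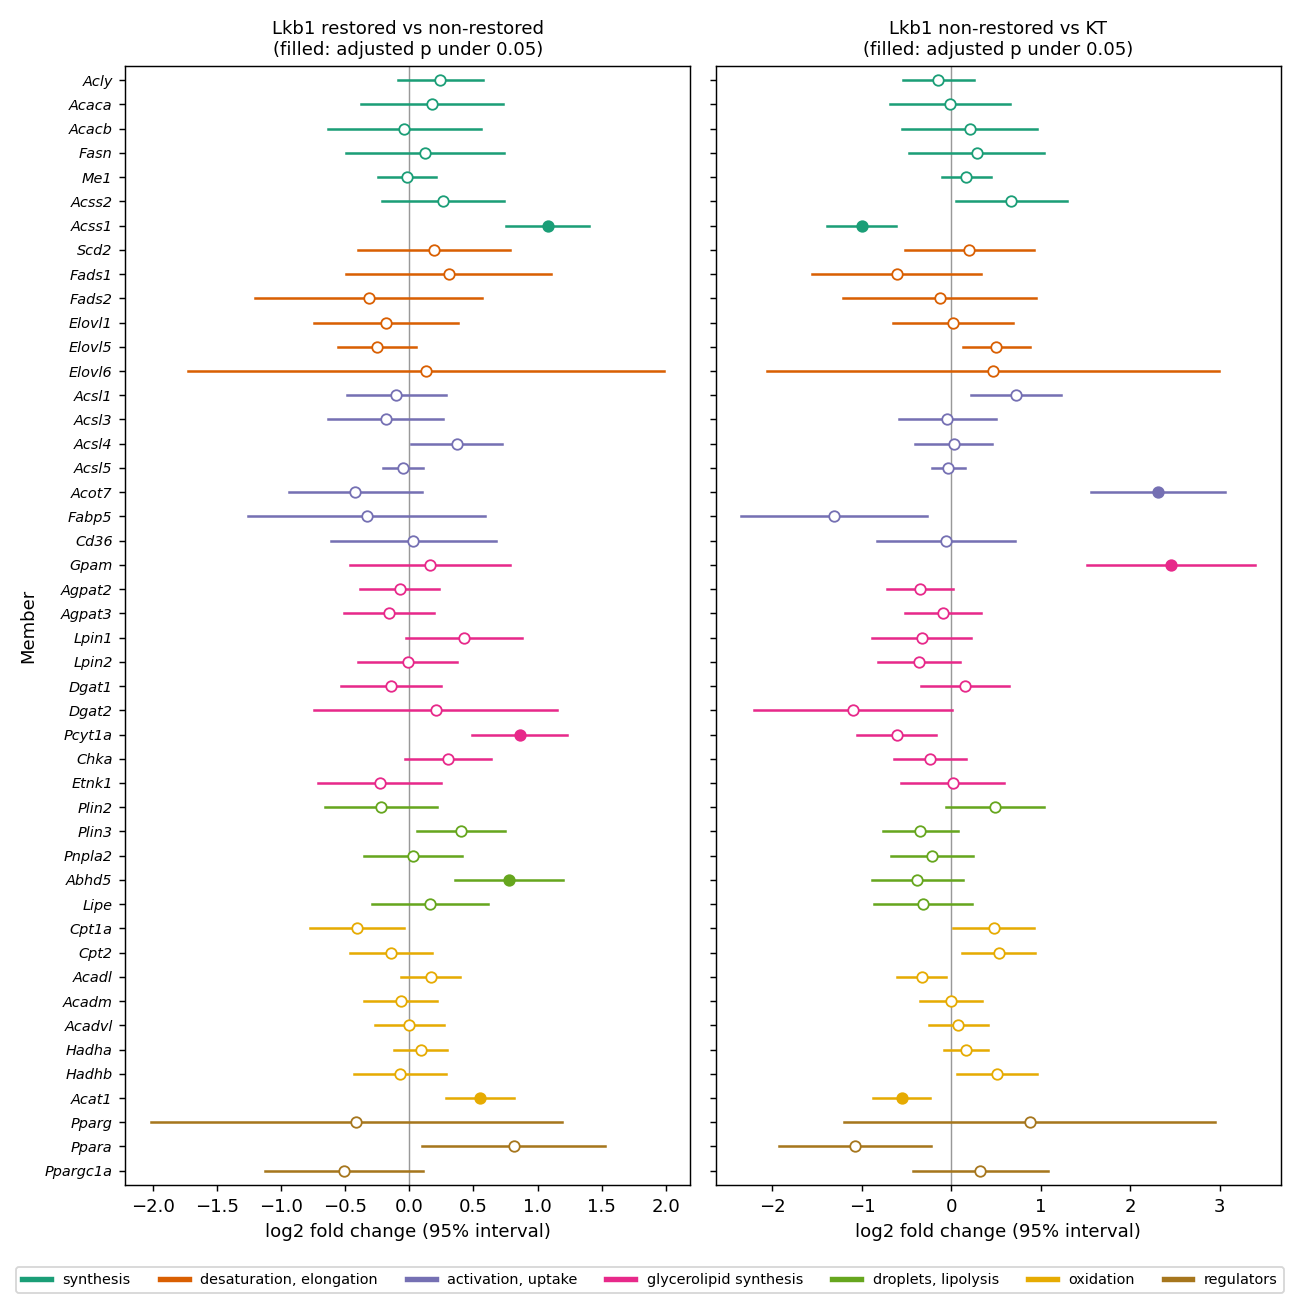
Log2 fold changes (points) with 95% intervals (lines) of the 46 members tested, colored by role, in restored against non-restored and in non-restored against KT tumors, with filled points for an adjusted p under 0.05. There are 4 filled points in each panel, and Gpam and Acot7 have the largest log2 fold changes against KT, at 2.45 and 2.31.

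Restored and KT tumors differed in 2 of 46 members, Gpam and Acot7, both higher in restored tumors, while 0.45% of all genes were called (0.126% higher, 0.324% lower). There were 6 of 46 members with an unadjusted p under 0.05, against 10.5% of all genes, and the median was 0.07 over members and 0.01 over all genes. Without KT replicate 1 or without KT replicate 4, 0 members were called, while the calls over all genes went from 57 to 21 and 22. Gpam alone was called without KT replicate 3. Over all alternatives the log2 fold change stayed at 2.19 to 2.88 for Gpam and at 1.66 to 2.13 for Acot7. In female libraries alone 0 members and 10 genes were called. This comparison shares the KT libraries with the second and the restored libraries with the first. Acss1 had a log2 fold change of 0.08 in this comparison (95% interval -0.34 to 0.50) and Acat1 of -0.01 (-0.35 to 0.33). The third smallest p belonged to Fabp5, a fatty acid binding protein, whose pseudogenes share sequence with it so that RSEM may divide its reads. Fabp5 was at 132.1, 65.6, 115.1 and 131.9 CPM in KT libraries, at 5.91 to 84.4 in non-restored libraries (median 35.4) and at 3.96 to 63.0 in restored libraries (median 35.6). All 7 restored libraries were below all 4 KT libraries, and the non-restored group overlapped KT. The log2 fold change against KT was -1.64 (SE 0.54, adjusted p = 0.2289), which did not pass the test in any of 19 alternatives (adjusted p 0.09438 to 0.7813).

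Since Gpam and Acot7 separated KT libraries from those of Lkb1XTR mice, genes close to them were inspected. Gpam lies at chr19:55067268-55127238 and Acot7 at chr4:152178134-152271855. Within 2 Mb, 0 of 20 tested genes around Gpam were called against KT in either group. Around Acot7, 2 of 26 tested genes were called in non-restored tumors (Eno1 and Rps15a-ps3) and 1 of 26 in restored tumors (Rps15a-ps3). Of all genes tested, 5.86% were called against KT in non-restored and 0.45% in restored tumors. Whether strain-derived alleles that differ between the mouse lines play a part was not tested.

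In Trp53-deleted tumors restoration gave 0 calls among 46 members, and percent called was 0 over all 12518 genes tested by edgeR, while DESeq2 called 0 members and 23 genes. At an unadjusted p under 0.05 there were 6 of 46 members, all higher, against 5.98% of all genes. They were Acsl4, Acacb, Pcyt1a, Scd2, Fads1 and Abhd5. Acsl4 had the smallest p. It was at 1181, 1203, 1277 and 818 CPM in non-restored animals 1 to 4 and at 1561, 1579, 1942 and 1862 in restored animals 1 to 4, and the groups did not overlap (log2 fold change 0.66, SE 0.18, unadjusted p = 0.00464, adjusted p = 0.8035). Pcyt1a was at 61.05, 51.5, 30.75 and 32.5 CPM in non-restored animals and at 68.4, 59.9, 78.2 and 72.55 in restored animals. The lowest restored animal fell below the highest non-restored one, and the log2 fold change of 0.69 (SE 0.23) had an adjusted p of 0.8035. Acacb, which makes the malonyl-CoA that inhibits carnitine palmitoyltransferase, was at 6.61, 6.13, 4.29 and 4.58 CPM against 11.05, 6.525, 9.497 and 14.9 (log2 fold change 0.97, SE 0.33, adjusted p = 0.8035). Non-restored animal 4 was low in many of these genes and in alveolar type II markers (9351 CPM, against 24840 to 35740 in the other 3 animals of its group and 36200 to 53570 in restored animals). The part of this difference in the results was not tested. Agpat2, an acyltransferase of phosphatidate synthesis, was lower in all 4 restored animals than in all 4 non-restored animals (log2 fold change -0.47) and Acaca higher (0.43), and neither had an unadjusted p under 0.05. The share of all genes that separate in this way with 4 against 4 animals was not computed.

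An interaction term asked whether restoration acted differently with and without Trp53. It gave 0 calls among 48 members and a percent called of 0 over all 13705 genes by edgeR, DESeq2 also called 0 of both, and 1 of 48 members had an unadjusted p under 0.05, against 3.09% of all genes. That member was Acss1. In Trp53-deleted tumors it was at 16.6, 28.5, 29.7 and 19.7 CPM without and at 34.7, 30.1, 30.75 and 25.6 CPM with restoration, and the groups overlapped. Its log2 fold change there was 0.38 (SE 0.23) and the interaction -0.74 (95% interval -1.26 to -0.22, unadjusted p = 0.00732, adjusted p = 1). The next smallest p were those of Acacb (interaction 0.97, unadjusted p = 0.0618) and Fads2, a fatty acid desaturase of low level (1.48, unadjusted p = 0.0791). Fads2 was at 1.555, 5.21, 2.145 and 0.916 CPM in Trp53-deleted non-restored animals, at 11.96, 2.175, 5.88 and 3.34 in restored animals, at 0.699 to 12.4 in non-restored libraries (median 5.838) and at 2.48 to 9.07 in restored libraries (median 4.47), with overlap throughout. Abhd5 and Pcyt1a, called in Trp53 wild-type tumors, had interactions of -0.18 and -0.21 with intervals that included 0.

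Trp53-deleted and Trp53 wild-type tumors also differed in age, and the deletion and tumor age cannot be told apart. Estimates of the fatty acid synthesis genes lay below 0 in Trp53-deleted tumors, and few members passed the test. Among non-restored tumors 1 of 48 members was called, Acadvl, the very long-chain acyl-CoA dehydrogenase, while 0.598% of all genes were called (0.372% higher, 0.226% lower). Acadvl was at 18.3, 23.9, 24.7 and 20.6 CPM in Trp53-deleted animals, below the 30.3 to 49.7 CPM of all 10 Trp53 wild-type libraries (log2 fold change -0.82, SE 0.19, adjusted p = 0.0397). The call held in 7 of 19 alternatives (adjusted p 0.004655 to 0.1902). There were 17 of 48 members with an unadjusted p under 0.05, 15 of them lower, against 17.7% of all genes. All 7 synthesis genes had estimates below 0, and 5 of these had an unadjusted p under 0.05, with Fasn at -1.11, Acacb at -1.002, Acaca at -0.88, Acly at -0.61 and Me1 at -0.39. The median over members was -0.26, against -0.02 over all genes.

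This comparison depended on non-restored replicate 8. Fasn was at 230 CPM in that library and at 459 to 1634 in the other 9, and at 372, 485, 582 and 284 in Trp53-deleted non-restored animals. Scd2 was at 170.5 CPM in it and at 440 to 1290 in the others, Fads1 at 2.56 and at 15.9 to 74.2, and Cd36 at 158 and at 1125 to 1806. Without that library 12 of 48 members were called, all of them lower in Trp53-deleted tumors, and 1450 of 13427 genes were called in all. They were Acly, Acaca, Acacb, Fasn, Me1, Elovl1, Fads1, Acsl4, Pcyt1a, Acadl, Acadvl and Hadha, with log2 fold changes from -0.35 (Acadl) to -1.285 (Fads1). Without any other single library or animal 0 or 1 members were called. Trp53-deleted non-restored animal 4, low in alveolar type II markers (9351 CPM), stayed in the fit with 12 calls, and no fit left out both. The median marker sum was 25640 CPM in Trp53-deleted and 52400 in Trp53 wild-type non-restored tumors. The part of this difference in the calls was not tested.

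Among restored tumors 0 of 48 members passed the test between Trp53 backgrounds by edgeR, while 0.372% of all genes did, and 11 of 48 had an unadjusted p under 0.05 (10 lower), against 15.5% of all genes. DESeq2 called 3 members, Acly, Acss1 and Pcyt1a, and 216 genes in all, against 51 by edgeR. Acss1 had the smallest p (log2 fold change -0.81, SE 0.19, adjusted p = 0.0541), and all 4 Trp53-deleted restored animals lay below all 7 Trp53 wild-type restored libraries for Acss1, Acly and Pcyt1a. Fasn was at 672, 502, 465 and 508 CPM in Trp53-deleted restored animals and at 492 to 1325 in Trp53 wild-type restored libraries (log2 fold change -0.92, adjusted p = 0.2494). The median over members was -0.22, against 0.00175 over all genes.

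Within groups the members varied together in some libraries. In non-restored replicate 8, where Fasn, Scd2, Fads1 and Cd36 were at their lowest, Pparg, the nuclear receptor of lipid storage, was at 117 CPM and Elovl6 at 15.6. Non-restored replicate 4 had Fasn at 459, Fads1 at 15.9 and Pparg at 85.7 CPM. In the restored group, replicates 4 and 5 had the lowest Fasn (492 and 629 CPM), Scd2 (510 and 744), Cd36 (673 and 792) and the highest Pparg (56.6 and 54.8), against 4.16 to 11.7 CPM of Pparg in the other 5 libraries. Elovl6 was at 15.25 and 8.35 CPM in these libraries and at 0.2995 to 0.643 in the other 5. Alveolar type II markers were lowest in the same libraries, at 41070 and 49400 CPM in restored replicates 4 and 5 against 79140 to 106700 in the others, and at 32190 and 7076 in non-restored replicates 4 and 8 against 45050 to 71800. Macrophage markers summed highest in restored replicate 1 (1387 CPM), where Pparg was at 7.71 CPM, and restored replicates 4 and 5 had sums of 327 and 265.6. The part of these marker levels in the group comparisons was not tested.

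**Figure D3:**
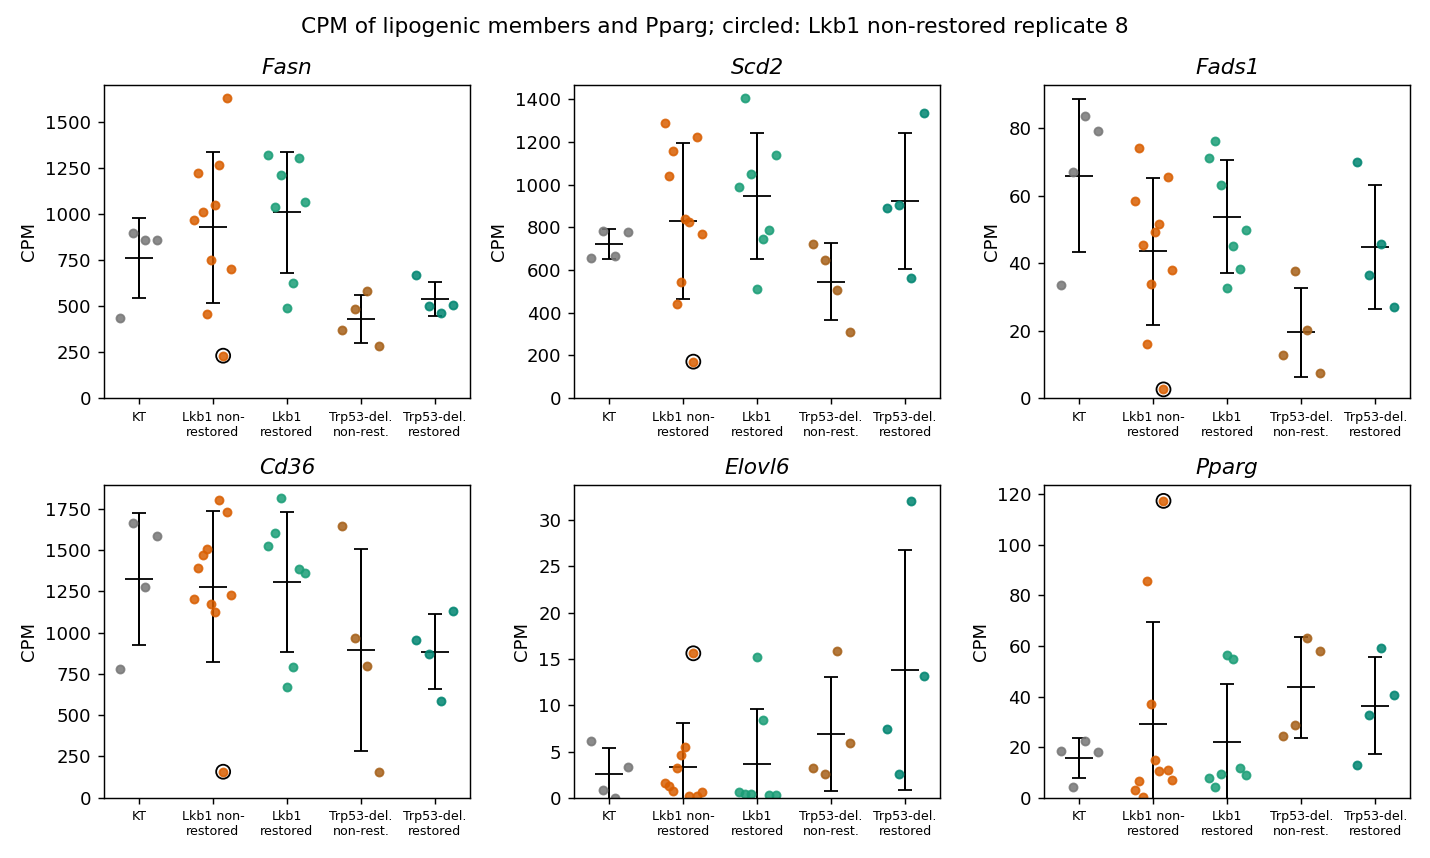
CPM of Fasn, Scd2, Fads1, Cd36, Elovl6 and Pparg (linear axes from 0) with 1 point per library or, for Trp53-deleted tumors, per animal, and bars for the mean ± SD, cut off at 0. The circled library, non-restored replicate 8, has 230 CPM of Fasn, the lowest of all samples, and 117 CPM of Pparg, the highest.

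Across libraries the least variable members in non-restored tumors were Acsl5 (SD of log2(CPM + 0.5) 0.13), Agpat2 (0.18), Hadha (0.20), Acadvl (0.21) and Me1 (0.22), and the most variable were Pparg (2.115), Elovl6 (1.465), Fads1 (1.37) and Mgll (1.29). Mgll (0 to 15 counts, median 0.66 CPM) and Elovl6 (1 to 67 counts, median 1.45 CPM) were near the limit of detection in most of these libraries, so counting error adds to their SD. Without non-restored replicate 8 the SD was 1.90 for Pparg, 1.155 for Elovl6 and 1.27 for Mgll, and it fell to 0.65 for Fads1 and from 1.02 to 0.25 for Cd36. Oxidation genes had SDs from 0.20 (Hadha) to 0.42 (Hadhb) with all 10 libraries. For Acsl5 the restored and non-restored groups differed by -0.05 (95% interval -0.20 to 0.11), the narrowest interval among members.

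**Figure D4:**
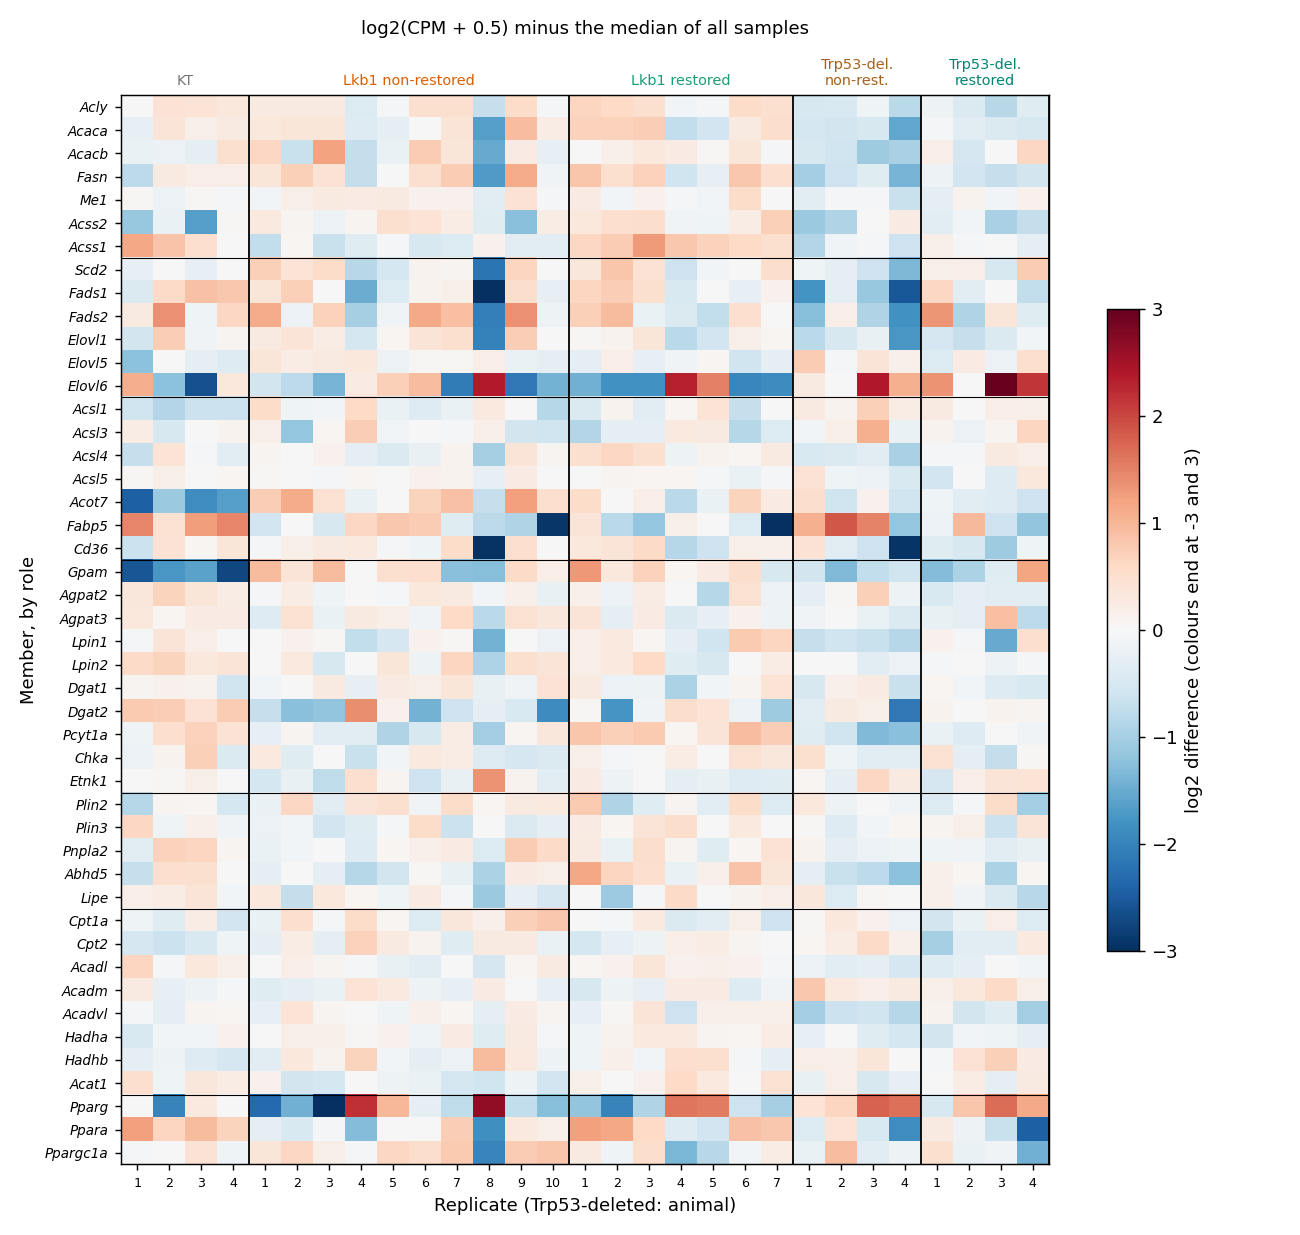
Log2(CPM + 0.5) of the 46 members tested minus each gene's median over all samples, with members in rows by role and libraries or, for Trp53-deleted tumors, animals in columns by group and replicate number. Acot7 and Gpam are low across the 4 KT columns, Acss1 is higher in the restored than in the non-restored columns, and non-restored replicate 8 is low for most genes of synthesis and desaturation and high for Elovl6 and Pparg.

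Of 105 other genes of the same pathways, chosen by function but with earlier results of these data known, 83 were tested in Trp53 wild-type tumors. After restoration 4 of 83 were called, 3 higher and 1 lower, against 1.86% of all genes. Ces1d, a carboxylesterase that hydrolyzes triglyceride, was at 1.63 to 62.1 CPM in non-restored and 79.4 to 285.0 in restored libraries, with no overlap (log2 fold change 2.40, SE 0.46, adjusted p = 0.00829). Hadh, the short-chain hydroxyacyl-CoA dehydrogenase of β-oxidation, rose by 0.61 on the log2 scale (SE 0.15, adjusted p = 0.02904), and Pisd, which makes phosphatidylethanolamine in mitochondria, rose by 0.50 (SE 0.13, adjusted p = 0.0485). Cds1, which makes CDP-diacylglycerol for phosphatidylinositol and cardiolipin, fell by 0.71 on the log2 scale (SE 0.18, adjusted p = 0.0394). Ces1d and Hadh kept the call in 26 of 27 and 24 of 28 alternatives, and Pisd and Cds1 in 7 of 28 and 11 of 28. Without non-restored replicate 8 Pisd was not called.

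Between non-restored and KT tumors 6 of 83 were called, against 5.86% of all genes. Ces1d (-2.31), Hadh (-0.72) and Cds2, a second CDP-diacylglycerol synthase (-0.65), were lower in non-restored tumors. The monoacylglycerol lipase Abhd6 (1.39), the thioesterase Acot9 (1.04) and Cds1 (0.95) were higher. Ces1d was at 116.4 to 265.3 CPM in KT libraries, close to its range in restored libraries. Between restored and KT tumors 0 of 83 were called by edgeR, with 7 at an unadjusted p under 0.05, against 10.5% of all genes. The Trp53-deleted comparison called 0 of 84 by edgeR (8 at an unadjusted p under 0.05, against 5.98% of all genes) and the interaction 0 of 87 (3 at an unadjusted p under 0.05, against 3.09%). Between Trp53 backgrounds 1 of 87 was called in non-restored tumors, against 0.598% of all genes. Hacd2, a dehydratase of the elongation cycle, was higher in Trp53-deleted tumors (1.025, adjusted p = 0.0334). It kept the call in 11 of 19 alternatives, and 0 to 15 of the other genes were called without 1 library. In restored tumors 1 of 87 was called, against 0.372% of all genes. Pgs1, which acts in cardiolipin synthesis, was lower in Trp53-deleted tumors (-1.06, adjusted p = 0.04705) and kept the call in 6 of 16 alternatives.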

How the data were processed

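Neoplastic cells were sorted as tdTomato-positive and negative for CD45, CD31, F4/80 and Ter119, and ribosomal RNA was depleted before sequencing. The authors aligned the reads to mm10 with STAR 2.6.1d and deposited RSEM expected counts and TPM per gene for each library (RSEM 1.2.30). Expected counts, of which 5.57% per library were not whole, were rounded. Genes were filtered with filterByExpr, scaled by TMM and tested with edgeR 4.0.16 (robust quasi-likelihood F test, Benjamini-Hochberg adjustment over all genes, threshold 0.05). The 3 Trp53 wild-type groups shared 1 fit, Trp53-deleted animals (4 against 4) another, and the interaction and Trp53 contrasts used 25 samples. SEs are the log2 fold change divided by the square root of F, and 95% intervals use the t quantile of the fit. DESeq2 1.42.0, other scaling, filters, length offsets, control arms, sex and left-out libraries were alternatives. The script was tested on simulated data. Values by library are given for members called in the first 5 comparisons, or for the 3 with the smallest p where fewer were called. Whether groups overlapped was read for members and named genes only, and the share of all genes without overlap was not computed. Members and lists were chosen with earlier results of these data known. Levels of Fasn, Scd2, Fads1, Cd36, Elovl6 and Pparg by library were chosen after values were seen. A further allele, carried by the mice of all groups, is not reported here.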

Additional observations from a re-analysis of the deposited data

Results flagged for a closer look

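Among 50 groups of member values with 4 to 10 samples, 3 held a sample far from the rest, and chance gives about 1 in 20. Acss1 in restored replicate 3 was at 75.02 CPM, against 54.37 in the next library, and without it Acss1 was still called between restored and non-restored tumors. Abhd5 in Trp53-deleted restored animal 3 was at 56.08 CPM, against 111.7 in the nearest of the other 3 animals. Acacb in KT replicate 4 was at 13.43 CPM, against 8.301 in the next KT library.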

How the results depend on the processing

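No direction reversed among 800 alternatives of 35 gene results, of which 644 kept their side of the threshold, 148 lost and 8 gained the call. For restored against non-restored tumors, 0 members and 50 of 12213 genes were called with the tamoxifen-treated controls alone. These controls include non-restored replicate 8, and the arm was not run without it. With the vehicle controls alone 2 members (Acss1, Pcyt1a) and 196 of 12284 genes were called. Female libraries alone gave 3 members (Acss1, Pcyt1a, Abhd5) and 178 of 13394 genes. Without 1 library 2 to 4 members were called (2 without restored replicate 7). Against KT, non-restored tumors gave 1 call in female libraries and 2 with the tamoxifen-treated controls (Acat1, Acot7), and 3 to 5 without 1 library. Restored tumors against KT gave 1 call with at least 10 counts in every library (Acot7), 0 in female libraries and 0 to 2 without 1 library. Trp53-deleted against wild-type non-restored tumors gave 0 calls with no filter, 2 by DESeq2 (Acadvl, Fasn), 0 with length offsets and 0 to 12 without 1 library, and restored tumors gave 1 with at least 10 counts (Acss1), 3 by DESeq2 and 0 to 1 without 1 library (1 without restored replicate 7). The cause of these shifts was not tested, apart from the smaller groups in some. Restoration in Trp53-deleted tumors and the interaction gave 0 in all alternatives run. With the replicate number as a block, 3, 4 and 2 members were called in the 3 Trp53 wild-type comparisons (Acat1 lost in the first and second, Elovl5 gained in the second). Same-numbered non-restored and restored libraries correlated at 0.0444 to 0.501, 5 of 7 above 0.1. Their median was 0.147, against 0.017 for libraries with different numbers. The labels do not say whether the numbers mark pairs, and the main fits did not use them. No paired analysis was possible for Trp53-deleted tumors because their replicate numbers come from sample order. The KT group of 4 and KT counts of 8 to 27 for Gpam limit precision.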
